A study of Mus musculus with 4 samples.

Results

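Neuropeptides are small signalling proteins that neurons cut from larger precursors, store in dense-core vesicles and release alongside fast transmitters, and nearly all of them act through G-protein-coupled receptors. In the brain they are best known for hypothalamic control of feeding, arousal, water balance and pituitary output, and for marking classes of cortical interneuron. The genes followed here were 45, of which 19 encode peptide precursors and 26 encode receptors, with opioid and pituitary hormone genes left out. Members were the probe sets whose annotation names exactly 1 of these genes. All 45 were measured, by 46 of the 35556 probe sets on the arrays, since the VIP receptor gene Vipr1 had 2 probe sets and the others 1 each.

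Whole-brain RNA of male C57BL/6J mice was hybridized to 4 Mouse Gene 1.0 ST arrays. The arrays titled ethanol 2 and ethanol 4 held RNA of mice injected subcutaneously with 20% ethanol in 0.15 M saline on postnatal days 4 and 7, as 2 doses of 2.5 g/kg given 2 hours apart on each day, a model of exposure in late human pregnancy. Control 1 and control 3 held RNA of littermates injected with 0.15 M saline alone. All pups were separated from the mother during injections, and by the labels they were weaned at day 25 and killed at day 60 (the methods of the study give other ages). Each array was 1 pool of 3 males from different litters, so the n of 2 arrays per group counts pools. In whole-brain RNA, fewer cells of a type and less RNA per cell cannot be told apart. For control 1 and ethanol 4 the treatment entry of the labels names the opposite group from title and source name, which set the groups here.

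Values are log2 signals, on which a difference of 1 is a doubling, and levels are not compared between genes because probe sets differ in how strongly they bind. The ethanol arrays were dimmer in most probe sets, 80.2% of which were lower as deposited. Array medians were 6.33 and 6.38 on ethanol 2 and ethanol 4, against 6.61 and 6.51 on control 1 and control 3. Over all probe sets the median difference (ethanol minus control) was -0.146 as deposited. Quantile normalization of the deposited values brought it to -0.004, so the differences of most genes are given on both scales. Tests were limma's moderated test (two-sided), and a probe set counted as past the study's limits where it differed by at least 1.2-fold at an unadjusted p below 0.05. General neuron and glia markers were bright on all 4 arrays, with a log2 of their summed signal of 15.0 and 15.03 on the ethanol arrays, and 15.1 and 15.04 on the control arrays. Ethanol 2 lacked most of the pituitary signal of the other arrays. The log2 of the summed signal of 9 pituitary markers was 8.89 on ethanol 2 and 12.87 on ethanol 4, against 12.77 and 12.73 on control 1 and control 3.

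One gene of the set stood apart from the rest. Nmbr, the receptor for neuromedin B, was higher on both ethanol arrays by 0.71, a fold of 1.63, whereas the other 45 probe sets of the set differed by -0.33 to 0.11. The shift of those 45 was close to that of the arrays as a whole, and after quantile normalization they lay between -0.23 and 0.26, with no member but Nmbr past the limits.

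Counted over the set, 1 of 46 probe sets (2.17%) was past the limits and higher as deposited, where 2.23% of all probe sets were, and 4 of 46 (8.70%) were past them and lower, where 17.9% of all were. After quantile normalization 1 was higher and 0 were lower, where 5.71% and 5.87% of all probe sets were, and Nmbr was also the 1 member with an unadjusted p under 0.05 in limma, where 13.6% of all were. As deposited 30 members (65.2%) had both ethanol pools below both control pools, where 52.7% of all probe sets did, and 1 (2.17%) had them above, where 7.25% did. After normalization 6 (13.0%) were below, where 24.9% of all were, and 11 (23.9%) were above, where 24.0% were. Of the members 43 (93.5%) were below 0 as deposited, as were 80.2% of all probe sets. The members' median difference was -0.144 as deposited and 0.016 after normalization, against -0.146 and -0.004 over all probe sets. No member passed an adjusted p of 0.05 in limma on either scale, where 0.00281% and 0.00562% of all probe sets did, and 6 members were under an unadjusted p of 0.05 as deposited, where 22.2% of all were. An exact permutation of 2 against 2 arrays cannot go below a two-sided p of 0.333.

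To show the sequence context of Nmbr, the 250 bases before its annotated start are printed below from the promoter table of RefSeq (GRCm38.p6, chr10:14759697-14759946, plus strand). The stretch was searched on both strands for the cAMP response element TGACGTCA, its half-site TGACG, the TATA sequence TATAAA and the E-box CACGTG, and holds none of these letters.
Nmbr: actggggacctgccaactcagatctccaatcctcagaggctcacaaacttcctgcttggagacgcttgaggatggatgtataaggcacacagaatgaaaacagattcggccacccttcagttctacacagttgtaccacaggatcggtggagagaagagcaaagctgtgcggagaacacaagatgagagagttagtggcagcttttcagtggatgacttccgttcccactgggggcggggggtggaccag

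Nmbr had log2 signals of 8.11 on ethanol 2 and 8.19 on ethanol 4, against 7.50 on control 1 and 7.39 on control 3. Both ethanol pools lay above both control pools, and the gaps within a group, 0.08 and -0.11, were small beside the gap between groups. The difference was 0.71 (standard error 0.09, unadjusted p = 0.000981, adjusted p = 0.144 by limma over all probe sets). After quantile normalization the signals were 8.19 and 8.25 on the ethanol arrays and 7.36 and 7.34 on the control arrays, with a difference of 0.87 (standard error 0.08, unadjusted p = 0.000205, adjusted p = 0.135 by limma). Of the 21789 probe sets that name 1 gene, 10 had a difference above that of Nmbr on either scale. Of all 35556 probe sets 430 did as deposited and 387 after quantile normalization, and 224 and 48 had a smaller p on the 2 scales. The call held without any 1 of the 4 arrays, at 0.65 to 0.76, but it rests on the titles. With arrays grouped by the treatment entry of the labels, each group holds 1 high and 1 low array, and the difference was 0.02 (limma, unadjusted p = 0.965).

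Neuromedin B and gastrin-releasing peptide are the mammalian members of the bombesin family, and their receptors are encoded by Nmbr and Grpr, with Brs3 as a related receptor. The peptide genes did not move with Nmbr. Nmb, which encodes the ligand of the receptor, had signals of 5.42 and 5.55 on the ethanol arrays, against 5.61 and 5.43 on the control arrays. Grp had 7.75 and 7.79 on the ethanol arrays, against 7.88 and 7.84 on the control arrays. Both were at small differences, -0.03 for Nmb and -0.09 for Grp, and at 0.14 and 0.07 after quantile normalization, where both ethanol pools lay above both control pools without passing the limits (limma, unadjusted p = 0.168 and 0.417). Grpr was at -0.22 and -0.02 on the 2 scales and Brs3 at -0.12 and 0.03. Nmb, Grpr and Brs3 had signals in the range of receptors that the brain is not known to use, so a difference in them may not have been measurable.

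**Figure D1:**
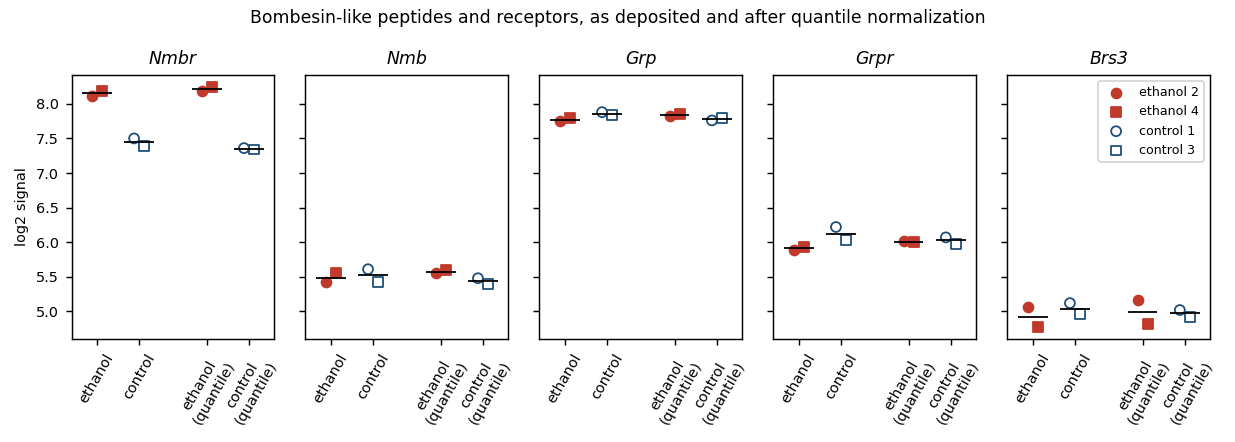
Log2 signals (vertical axis) of the bombesin-like receptors and peptides on the ethanol arrays (filled) and the control arrays (open), as deposited on the left and after quantile normalization on the right of each panel, with bars at the mean of 2 arrays. Nmbr was at 8.11 and 8.19 on the ethanol arrays and 7.50 and 7.39 on the control arrays, whereas in the other 4 genes the group means lay within 0.22 of each other on both scales.

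Of the 6 genes beside Nmbr in the annotation, none was past the limits and higher on either scale. Gje1, the nearest protein-coding gene on one side, differed by -0.33 as deposited, past the limits and lower, and by -0.16 after quantile normalization, which was not. Txlnb likewise passed them as deposited only, at -0.29 and -0.11. Gje1 and Txlnb had mean signals of 5.52 and 5.76, in the range of receptors that the brain is not known to use. A difference in them may not have been measurable. Cited2, the nearest on the other side, differed by -0.10 and -0.04. Among the neighbours, 3 on each side, the highest difference after quantile normalization was that of Adgrg6, at 0.23. Its ethanol pools both lay above both control pools on that scale, at 1.17-fold, short of the 1.2-fold limit.

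Some markers of brain regions did differ in the same direction as Nmbr, and others in the opposite direction. Over all probe sets, 2.23% were past the limits and higher as deposited and 17.9% lower, and after quantile normalization 5.71% and 5.87%. Receptors for neuromedin B are known from rat olfactory and thalamic regions, and of 6 olfactory bulb markers Cdhr1 was past the limits and higher (0.38, and 0.58 after quantile normalization). The dopamine synthesis gene Th was at 0.47 and passed the limits after quantile normalization (0.61), and Eomes was past the limits and lower as deposited (-0.42). Eomes was at -0.22 after quantile normalization. The log2 of the summed signal of the 6 markers was 10.16 and 10.42 on the ethanol arrays and 10.04 and 10.26 on the control arrays, where the groups overlapped. After quantile normalization it was 10.25 and 10.49 on the ethanol arrays and 9.92 and 10.22 on the control arrays, where both ethanol pools lay above both control pools. Th weighed in this sum, with 8.35 and 8.80 on the ethanol arrays and 7.78 and 8.13 on the control arrays. The sum without Th is not given here. Singly, 3 of the 6 markers had both ethanol pools above both control pools on that scale and 0 had them below. Over all probe sets 24.0% and 24.9% did.
Of 14 hypothalamic markers 1, the huntingtin partner gene Hap1, was past the limits and higher (0.60, and 0.74 after quantile normalization). The median over these markers was -0.08 as deposited and 0.08 after normalization. The log2 of their summed signal was 10.25 and 10.29 on the ethanol arrays and 10.13 and 10.16 on the control arrays. Without Hap1 the sum of the other 13 was 9.56 and 9.62 on the ethanol arrays and 9.71 and 9.65 on the control arrays, so Hap1 set the direction of the deposited sum. After quantile normalization the sum without Hap1 was 9.68 on each ethanol array, against 9.57 and 9.60 on the control arrays. Singly, 8 of the 14 had both ethanol pools above both control pools on that scale and 0 had them below. Over all probe sets 24.0% and 24.9% did.
Of 7 cerebellar markers 1, the GABA receptor gene Gabra6, was past the limits and higher (0.51, and 0.58 after normalization), whereas the transcription factor gene En2 was at -0.35 and -0.22 without passing them. The log2 of the summed signal of the 7 was 13.50 and 13.42 on the ethanol arrays and 13.49 and 13.46 on the control arrays, so the groups overlapped. The part of these markers in the Nmbr difference was not tested.

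The hypothalamic peptide genes were close to the shift of the arrays. Of 8 probe sets, 7 were below 0 as deposited, with a median of -0.161 against -0.146 over all probe sets, and 3 were below 0 after quantile normalization, with a median of 0.026. None was past the limits on either scale.
Oxt, the oxytocin gene, had log2 signals of 7.59 and 7.77 on the ethanol arrays, against 7.96 and 7.92 on the control arrays. It differed by -0.27 (standard error 0.10, adjusted p = 0.229 by limma), and both ethanol pools stayed below both control pools after quantile normalization, at -0.11. Avp, its neighbour and the gene for vasopressin, had 5.67 and 5.70 on the ethanol arrays and 5.74 and 5.78 on the control arrays. Its direction turned with the scale, from -0.08 as deposited to 0.11 after quantile normalization.
Hcrt, which encodes the arousal peptides orexin A and B, had 7.45 and 7.48 on the ethanol arrays, against 7.86 and 7.59 on the control arrays. The difference of -0.27 became -0.09 after quantile normalization, and control 1 was the array that stood highest. Pmch, for melanin-concentrating hormone of the lateral hypothalamus, had 7.23 and 7.21 on the ethanol arrays, against 7.47 and 7.33 on the control arrays, and its difference of -0.18 came to 0.00.
Trh, for thyrotropin-releasing hormone, had 6.42 and 6.45 on the ethanol arrays, against 6.66 and 6.69 on the control arrays. Its difference of -0.24 had an unadjusted p of 0.0395 in limma but was under 1.2-fold, and it came to -0.03 after quantile normalization. Crh, for corticotropin-releasing hormone, which cortical interneurons also make, had 6.62 and 6.84 on the ethanol arrays, against 6.88 and 6.75 on the control arrays, so the groups overlapped. Ghrh and Gnrh1, the releasing hormone genes for growth hormone and gonadotropins, were at -0.14 and 0.01 as deposited, and at 0.05 and 0.17 after quantile normalization. In Gnrh1 the pools of a group differed by more than the groups, with 5.37 and 5.21 on the ethanol arrays and 5.45 and 5.11 on the control arrays.

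The cortical peptide genes differed by -0.18 to -0.03 as deposited and by -0.12 to -0.01 after quantile normalization. They are classed by their known use in cortical neurons, and which regions or cells gave their whole-brain signal was not measured. Their median was -0.131 as deposited and -0.041 after normalization, where that of the hypothalamic peptides was 0.026. With 4 and 8 probe sets these medians are a description, and no test of the difference was made. With arrays centred on their medians the cortical peptides lay above 0, at 0.03 to 0.18, so no direction can be given for them.
Npy, for neuropeptide Y, had 11.05 and 11.27 on the ethanol arrays, against 11.28 and 11.36 on the control arrays, with a difference of -0.16 (standard error 0.11, adjusted p = 0.413 by limma), and of -0.12 after quantile normalization. Sst, for somatostatin, had 11.70 and 11.87 on the ethanol arrays, against 11.92 and 11.72 on the control arrays, so the groups overlapped. Vip, for vasoactive intestinal peptide, had 7.51 and 7.52 on the ethanol arrays, against 7.60 and 7.78 on the control arrays. Both Vip and Cck, for cholecystokinin, lay lower on the ethanol arrays as deposited, and Cck also after quantile normalization. Cck had 11.20 and 11.23 on the ethanol arrays, against 11.33 and 11.30 on the control arrays. Of 11 cortex and hippocampus markers, the limits were passed downward by 2 in the deposited values, Neurod2 (-0.43) and Prox1 (-0.29), and after quantile normalization by Neurod2 (-0.31) but not Prox1 (-0.15). The log2 of their summed signal was 13.13 and 13.17 on the ethanol arrays, against 13.26 and 13.22 on the control arrays. After quantile normalization it was 13.15 and 13.21 on the ethanol arrays, against 13.21 and 13.23 on the control arrays. The median difference of the 11 markers was -0.06 as deposited and 0.01 after normalization, against -0.146 and -0.004 over all probe sets. The part of these markers in the cortical peptide values was not tested.

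Among the peptide genes that several brain regions use, Adcyap1 was past the study's limits as deposited and Tac2 had the highest difference. The 7 probe sets had a median of -0.095 as deposited and of 0.07 after quantile normalization, and lay between -0.28 and 0.11 as deposited.
Adcyap1, which encodes the cAMP-raising peptide PACAP, had 7.72 and 7.62 on the ethanol arrays, against 7.95 and 7.93 on the control arrays. Both ethanol pools were below both control pools, by -0.27 (standard error 0.09, adjusted p = 0.199 by limma) and by -0.11 after quantile normalization, which was not past the limits. Tac2, for neurokinin B, had 8.19 and 8.09 on the ethanol arrays, against 8.23 and 7.83 on the control arrays. It was at 0.11 as deposited and 0.26 after quantile normalization (standard error 0.14, limma, unadjusted p = 0.138), and the difference between the control pools, 0.40 in size, was larger than either. Tac2 is a marked transcript of the medial habenula. The log2 of the summed signal of 5 habenula markers was 9.64 and 9.71 on the ethanol arrays and 9.75 and 9.76 on the control arrays. Its direction turned after quantile normalization, with 9.73 and 9.77 on the ethanol arrays and 9.63 and 9.72 on the control arrays. The part of these markers in the Tac2 values was not tested.
Cartpt, for the feeding-related CART peptide, had 7.34 and 7.56 on the ethanol arrays, against 7.65 and 7.80 on the control arrays, a difference of -0.28 that was short of the limits (limma, unadjusted p = 0.0734) and came to -0.10 after quantile normalization. Gal, for galanin, had 6.03 and 5.78 on the ethanol arrays and 6.34 and 5.95 on the control arrays, so the groups overlapped. Nts, for neurotensin, was at -0.10 and turned to 0.10 after quantile normalization.

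The 27 receptor probe sets had a median of -0.145 as deposited and of 0.027 after quantile normalization. As deposited, 3 were past the limits and lower, Hcrtr1, Cckbr and Ntsr2, and Nmbr was past them and higher. None of the 3 was past the limits after quantile normalization.
Cckbr, the main cholecystokinin receptor of the brain, had 8.88 and 8.97 on the ethanol arrays, against 9.20 and 9.27 on the control arrays. Both ethanol pools were lower on either scale, by -0.31 (standard error 0.09, adjusted p = 0.184 by limma) and -0.19. Cckar, the receptor better known from gut and pancreas, was at -0.21 and -0.02.
Ntsr2, a neurotensin receptor that astrocytes express, had 10.27 and 10.41 on the ethanol arrays, against 10.70 and 10.58 on the control arrays. It was at -0.30 (standard error 0.10, adjusted p = 0.205 by limma) and had the lowest difference of the set after quantile normalization, -0.23 (limma, unadjusted p = 0.0577). The neuronal receptor gene Ntsr1 had 6.79 on ethanol 2 and 7.15 on ethanol 4, against 7.19 and 7.20 on the control arrays, so its difference of -0.23 came mostly from ethanol 2.
Hcrtr1, an orexin receptor, had 6.12 and 5.94 on the ethanol arrays, against 6.42 and 6.29 on the control arrays. It differed by -0.33 (standard error 0.11, adjusted p = 0.202 by limma) and by -0.13 after quantile normalization, where the groups overlapped. Its mean signal was in the range of receptors the brain is not known to use. Hcrtr2 had 5.96 and 5.91 on the ethanol arrays and 6.33 and 5.89 on the control arrays, and only control 1 stood apart.

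The calls of the 4 lower genes depended on single arrays. Without any 1 of the 4 arrays Adcyap1 was no longer past the limits (-0.22 to -0.32), and neither was Ntsr2 (-0.23 to -0.37). Cckbr was no longer past them without ethanol 2 (-0.26) or control 3 (-0.27), and Hcrtr1 without control 1 (-0.27) or ethanol 4 (-0.24). Other members entered when an array was left out. Without ethanol 4, Oxt (-0.36), Cartpt (-0.39), Npy5r (-0.41), Trhr (-0.37), Ntsr1 (-0.41) and Tacr1 (-0.40) were past the limits, and without control 3, Hcrt (-0.40) and Hcrtr2 (-0.39) were. Neither set of genes was past them after quantile normalization. The share of all probe sets past the limits in these fits is not given here. Without ethanol 4 the ethanol group was ethanol 2 alone, the array with the lowest median, 6.33.

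Among the other receptors, those for neuropeptide Y, Npy1r, Npy2r and Npy5r, differed by -0.14, -0.17 and -0.27 as deposited, and by 0.02, 0.04 and -0.06 after quantile normalization. Of the somatostatin receptors, Sstr1 was at -0.16 and 0.03, Sstr2 at -0.05 and 0.09, and Sstr3 at -0.08 and 0.13. Sstr4, the somatostatin receptor found in forebrain, had 8.73 on ethanol 2 and 9.30 on ethanol 4, against 9.13 and 8.99 on control 1 and control 3. One ethanol pool was below both controls and the other above them, and its gap of 0.57 between them was the largest between pools of 1 group in the set.
Tacr1, the substance P receptor, had 7.07 and 7.27 on the ethanol arrays, against 7.55 and 7.40 on the control arrays. It was lower on either scale, by -0.30 and -0.12, and was not past the limits (limma, unadjusted p = 0.0513 and 0.284). Tacr3, the receptor for neurokinin B, was at -0.14 and 0.06. The receptors for VIP and PACAP, Vipr2 and Adcyap1r1, were at -0.10 each as deposited, and at 0.08 and 0.00 after quantile normalization. The 2 probe sets of Vipr1 were at -0.12 and -0.25 as deposited, and turned apart at 0.07 and -0.05 after normalization.
Of the receptors for hypothalamic peptides, Oxtr was at -0.04 and 0.16, Avpr1a at -0.08 and 0.09, and Mchr1 at -0.02 and 0.14. The thyrotropin-releasing hormone receptor Trhr was at -0.27 and -0.06, and Mc4r, the melanocortin receptor that restrains feeding, at -0.18 and 0.01. The galanin receptors Galr1 and Galr2 were at -0.12 and -0.13 as deposited, and at 0.04 and -0.01 after normalization. Avpr1a varied between control pools, with 5.62 on control 1 and 5.23 on control 3, beside 5.33 and 5.36 on the ethanol arrays.

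**Figure D2:**
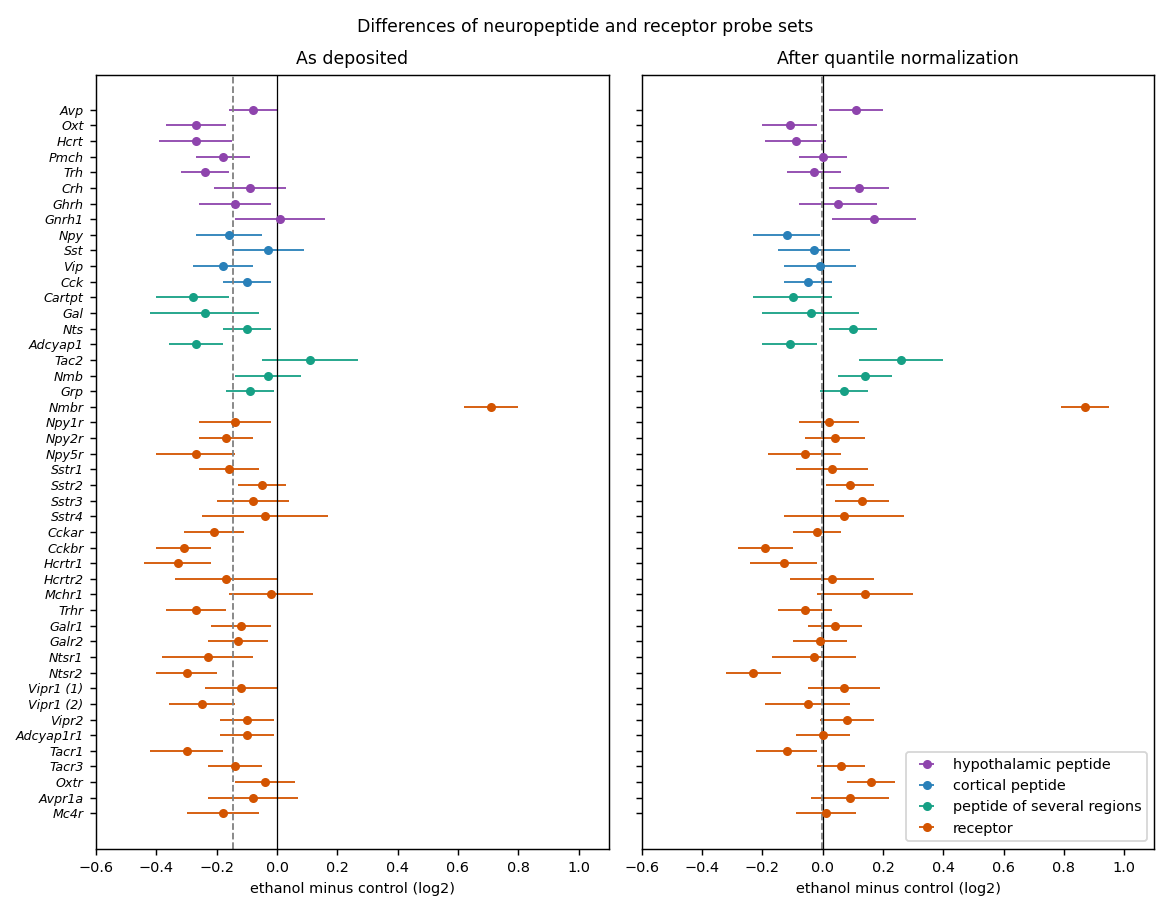
Difference (ethanol minus control, log2, horizontal axis) of each of the 46 probe sets, with bars of 1 standard error from limma, as deposited on the left and after quantile normalization on the right; the dashed line is the median over all probe sets and the colours mark the 4 classes. The probe sets other than Nmbr lay between -0.33 and 0.11 as deposited and between -0.23 and 0.26 after normalization, and Nmbr was at 0.71 and 0.87.

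Signals of the set, and their spread between pools, set how small a difference could be seen. As a guide to background, 210 probe sets named for vomeronasal and bitter taste receptors had a 95th percentile of 6.23 in their mean log2 signal. Of the 46 members 34 had a mean above it and 12 did not, among them Avp, Ghrh, Gnrh1, Gal, Nmb, Oxtr, Avpr1a and both galanin receptors. For these 12 the signal may hold little of the transcript, and a small difference in them does not show that it was unchanged.

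**Figure D3:**
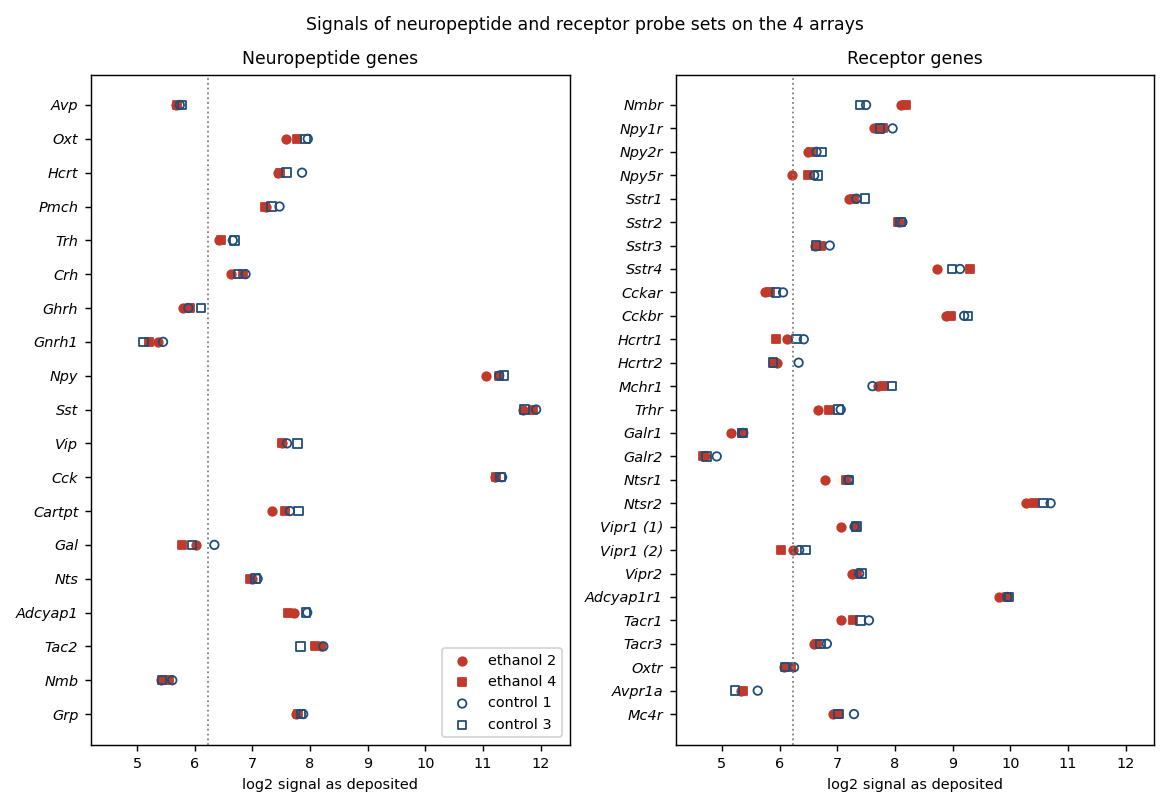
Log2 signals as deposited (horizontal axis) of the peptide genes on the left and the receptor genes on the right, with filled symbols for the ethanol arrays and open symbols for the control arrays; the dotted line at 6.23 is the 95th percentile of vomeronasal and taste receptor probe sets. For most genes the 4 arrays lay close together, the ethanol arrays of Nmbr stood at 8.11 and 8.19, and 12 probe sets had means to the left of the line.

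Pools of 1 group differed in these genes about as much as they did elsewhere. The median size of the gap between ethanol 4 and ethanol 2 was 0.10 over the members and 0.12 over all probe sets, and between control 3 and control 1 it was 0.12 for both. The low pituitary signal of ethanol 2 was not seen in the hypothalamic peptide genes. The pituitary transcript Gh was at 6.53 on ethanol 2 and 12.26 on ethanol 4, against 12.24 and 12.19 on the control arrays, whereas the 8 hypothalamic peptides differed by -0.15 to 0.22 between the same ethanol pools. The cortical peptide genes differed by 0.01 to 0.22. Of all members 35 were higher on ethanol 4 than on ethanol 2 as deposited, and 31 after quantile normalization. On control 3, 16 and 24 were higher than on control 1. The median of ethanol 4 minus ethanol 2 was 0.09 and 0.05 over the members, against 0.04 and 0.0 over all probe sets. The share of all probe sets higher on ethanol 4 is not given here. The largest gaps between pools were those of Sstr4 (0.57), Hcrtr2 (0.44), Tac2 (0.40), Gal (0.39) and Avpr1a (0.39), of which only that of Sstr4 was between the ethanol pools.

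**Figure D4:**
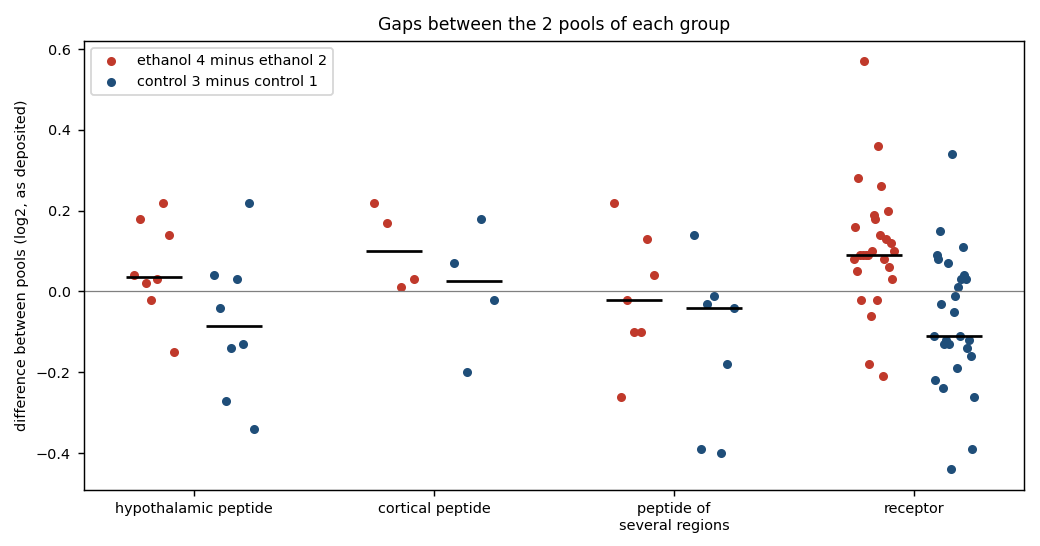
Gaps between the 2 pools of each group (vertical axis, log2 as deposited) for the probe sets of the 4 classes, with ethanol 4 minus ethanol 2 on the left of each class, control 3 minus control 1 on the right, and bars at the medians. Hypothalamic peptides lay between -0.15 and 0.22 in the ethanol pools and between -0.34 and 0.22 in the control pools, and the highest point, at 0.57, is Sstr4.

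Promoter sequence was at hand for 37 of the 45 genes. The full cAMP response element TGACGTCA, the site through which cAMP signalling was first shown to act on the somatostatin gene, stood in the 250 bases before the start of 3 of the 37 (8.11%), and of 1.77% of all 27025 genes in the table. Its half-site TGACG, which the full element contains, was in 15 of the 37 (40.5%) and in 19.8% of all genes. The 3 windows are shown because these genes carry the same element, which is in capitals, and come from RefSeq (GRCm38.p6).
Sst (chr16:23890874-23890903, minus strand): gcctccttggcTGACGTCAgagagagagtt
Cartpt (chr13:99900777-99900806, minus strand): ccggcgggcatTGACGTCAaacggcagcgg
Sstr2 (chr11:113619258-113619287, plus strand): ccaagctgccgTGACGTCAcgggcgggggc
The element lay 48 bases before the start in Sst, 112 in Cartpt and 58 in Sstr2. Their differences as deposited were -0.03 for Sst, -0.28 for Cartpt and -0.05 for Sstr2, and none was past the limits.
The E-box CACGTG was in 8 of the 37 (21.6%) and in 6.86% of all genes. Of the 4 genes past the limits and lower as deposited, Cckbr and Ntsr2 held it. The other holders, Avp, Cck, Mchr1, Npy5r, Oxtr and Sstr3, were not past the limits on either scale. The windows of Cckbr and Ntsr2 are shown with the E-box in capitals.
Cckbr (chr7:105425613-105425642, plus strand): ctccagcaggcgCACGTGtaaacacacaca
Ntsr2 (chr12:16653306-16653335, plus strand): ttcttccaccaaCACGTGcttttctggatg
Adcyap1 held the half-site TGACG and the TATA sequence, which was in 18.9% of the 37 and in 14.3% of all genes. These matches are a description of the letters, and no binding was measured.

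The other genes of neuropeptide signalling gave few calls, and most of these changed with the scale. Over all probe sets, 2.23% were past the limits and higher as deposited, and 17.9% were lower. After quantile normalization these shares were 5.71% and 5.87%. Of 28 further neuropeptide genes measured, 1 was past the limits and lower as deposited, Nps (-0.29), and 1 was higher after quantile normalization, Prlh (0.36). Of 35 further receptor genes, 5 were lower as deposited. They were Kiss1r, the kisspeptin receptor (-0.43, and -0.24 after normalization), Prlhr (-0.36), Npffr1 (-0.33), Trhr2 (-0.29) and Npr2 (-0.29). After quantile normalization none of these was past the limits, and Sctr (0.39), Crhr2 (0.37) and Mc5r (0.31) were higher. Only 8 of the 28 peptide genes and 10 of the 35 receptor genes had mean signals above the background guide of 6.23. Nps, Prlhr, Npffr1, Sctr, Crhr2 and Mc5r did not, so their signals may hold little of the transcript.
Of 20 genes for peptide processing and dense-core vesicles, 1 was past the limits on both scales. Vgf, which encodes a neuronal secretory protein of these vesicles, had 8.11 and 8.32 on the ethanol arrays, against 8.76 and 8.63 on the control arrays. Both ethanol pools were lower, by -0.48 (standard error 0.11, adjusted p = 0.173 by limma) and by -0.35 after normalization. The median differences of the 3 lists were -0.08, -0.12 and -0.16 as deposited and 0.08, 0.03 and -0.05 after normalization, against -0.146 and -0.004 over all probe sets.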

How the data were processed

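RNA of 4 pools of whole brain was measured on 4 arrays. Probe signals were summarized per gene by the authors in Partek Genomics Suite (6.6 in the submitters' notes), by RMA with GC adjustment and quantile normalization, and deposited as log2 values whose array medians still differ. The platform annotation gave gene symbols and names no genome build. All 35556 probe sets were fitted in limma 3.58.1 (R 4.3.3) with 2 residual and 2.57 prior degrees of freedom, with Benjamini-Hochberg adjustment across the whole table. The limits of 1.2-fold and p of 0.05 are those of the methods, whose per-gene ANOVA was run as an alternative and is called the methods' test. The code was tested on simulated data. The number of arrays limits the precision, and whether pools were processed together is not given in the sources used here.

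The members and lists were chosen with earlier results of these data known. All 45 members are named, with array values for those past the limits, the extremes of each class and the 5 largest gaps between pools. Genes of the other pathway lists are named where past the limits. Marker lists are given by counts or summed level with only some of their genes named. The lists for choroid plexus and for tissues other than brain are not reported here. Alternatives were grouping by treatment entry, the 2 arrays on which all labels agree, median centring, quantile normalization, leaving out probe sets with a mean under 5, an intensity trend, the methods' test, each array left out, both possible pairings and a 1.5-fold limit. Further genes of the lists that matched no probe set were not analysed here.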

Additional observations from a re-analysis of the deposited data

How the results depend on the processing

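Nmbr kept its direction and its call under every alternative that groups arrays by title and allows a test, at 0.65 to 0.92. Control 3 and ethanol 2 alone, 1 array against 1, gave 0.72 with no test. Grouped by the treatment entry it was at 0.02, and at -0.02 with quantile normalization, so members past the limits and higher numbered 0 with that entry. With that entry and quantile normalization the 1 higher member was Gal (0.31). Adcyap1 turned to 0.06 and Hcrtr1 to 0.16 by that entry, and to 0.02 and 0.13 with quantile normalization. The 4 lower members became 0 after quantile normalization, median centring, either form of the treatment entry grouping or a 1.5-fold limit, 2 by the methods' test and 1 to 7 with 1 array left out. The labels say that littermates were matched without saying which pools pair, and the titles share no number. With a replicate block pairing control 1 with ethanol 2, 2 members were lower, and with control 1 paired with ethanol 4, 3 were, with Nmbr higher in both.
Combinations of quantile normalization with another choice were chosen after seeing the data. With 1 array left out after quantile normalization, 0 members were lower and 1 to 2 higher, the second being Sstr4 without ethanol 2 (0.35), Mchr1 without control 3 (0.36) or Tac2 without control 1 (0.43). The median of the members, -0.144, was -0.190 to -0.094 with 1 array left out. It was 0.016 after quantile normalization, 0.068 after median centring, -0.003 by the treatment entry and -0.028 by that entry with quantile normalization. With 1 array left out after quantile normalization it was 0.003, 0.055, 0.036 and -0.006 without control 1, ethanol 2, control 3 and ethanol 4. Other pathway genes past the limits numbered 0 higher and 7 lower as deposited, 4 and 1 after quantile normalization, 7 and 1 after median centring, 1 and 0 by the treatment entry, 0 and 0 by that entry with quantile normalization, and 0 and 0 at 1.5-fold. They ran from 0 to 1 higher and 2 to 8 lower with 1 array left out. The share of all probe sets past the limits with 1 array left out is not given here, and the cause of these changes was not tested. Low signals limit what 12 of the 46 probe sets can show.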
